A study of Mus musculus with 6 samples.

Results

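The genes described here are 40 genes that flank Olig2 on mouse chromosome 16. They were chosen by position: 8 lie before Olig2, from Tiam1 to Paxbp1, and 32 after it, from Ifnar2 to Kcnj6. Of the 40, 37 had at least 1 probe on the array, 65 probes in all, among 25697. Hunk, Urb1 and Synj1 are not analysed here. A probe was tested when its detection p-value was under 0.05 on at least 3 of the 6 arrays, which 45 probes of 29 members passed. Mrap, Eva1c, Ifnar1, Dnajc28, Dopey2, Cldn14, Sim2 and Kcnj6 had a probe but none that passed.

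The arrays, Illumina bead arrays of the mouse transcriptome, measured RNA from 6 brain tumours. The 3 Olig2_het tumours grew from transplanted Olig2cre/+;p53fl/fl;hEGFRvIII cells, with cre at 1 Olig2 allele, and the 3 Olig2_null tumours from Olig2cre/cre;p53fl/fl;hEGFRvIII cells, with cre at both. Both groups therefore carried cre at Olig2, floxed p53 alleles and hEGFRvIII, a truncated and constantly active human EGF receptor, and the contrast is of 2 cre alleles with 1. The hosts were SCID mice, which make no mature lymphocytes of the T and B lineages but keep myeloid and vascular cells, and the tumours were taken once the animals had neurological symptoms. The labels give ages of 45, 50 and 47 days to numbers 1, 2 and 3 of both groups. Whether the tumours within a group stem from different lines is not stated, and the p-values therefore cover only the variation among these 6 tumours, which may be technical.

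Olig2 encodes a basic helix-loop-helix transcription factor of oligodendrocyte precursors, which binds E-boxes, short DNA sites of the form CANNTG. Its neighbours have little in common by function. Beside it lie the receptor chains Ifnar2, Il10rb, Ifnar1 and Ifngr2, which pass on signals of type I interferon, interleukin-10 and related cytokines, and interferon gamma. The whole block, these chains included, is the mouse counterpart of a stretch of human chromosome 21. It also holds genes studied in Down syndrome, such as Dyrk1a, Rcan1, Ttc3 and Sod1. The comparison shows how the levels of these neighbours differed between tumours with cre at both Olig2 alleles and tumours with cre at 1.

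The levels are log2 of the background-corrected and quantile-normalised signal, and differences are Olig2_null minus Olig2_het with the standard error (SE) of a moderated linear model. A gene was called at a Benjamini-Hochberg adjusted p under 0.05 over all 14606 tested probes, and is represented by its brightest tested probe. In a bulk tumour, fewer cells of a type and less RNA per cell cannot be told apart. Olig2 itself, the reference point, read 7.76, 7.85 and 7.13 in Olig2_het and 6.41, 5.86 and 6.44 in Olig2_null tumours. The groups did not overlap, with a difference of -1.34 ± 0.30 (SE, n = 3 and 3, adjusted p = 0.0555), which missed the threshold. What part of the transcript this probe reads is not given in the sources used here, so it is no check of the cre allele. Its neighbour Olig1, the related factor of the same lineage, read 14.80, 14.79 and 14.61 against 14.07, 13.36 and 14.55, again with no overlap (-0.74 ± 0.33, adjusted p = 0.221).

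The array totals bear on every value. Between 53.4% and 57.6% of probes were detected per array. The Olig2_null tumours resembled each other less (r = 0.886 to 0.928 over tested probes) than the Olig2_het tumours did (r = 0.943 to 0.980), and Olig2_null replicate 3 correlated with Olig2_het replicate 1 at 0.941, above its correlation with either tumour of its own group. Leaving out 1 Olig2_null tumour moved many of the smaller differences by more than 1.5 times. Leaving out an Olig2_het tumour mattered too. With all arrays 645 probes were called, and 10, 9 and 69 without Olig2_het replicates 1, 2 and 3. Without Olig2_null replicates 1, 2 and 3 the counts were 305, 116 and 1922.

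Among the 29 measured members, 1 was called: Rcan1 fell. Ttc3 and Tiam1, which like Rcan1 were abundant, were lower in every Olig2_null tumour than in any Olig2_het tumour by a similar amount but were not called. Of the 45 tested member probes 1 was called (2.22%), against 4.42% of all tested probes in either direction and 1.77% lower. At an unadjusted p under 0.05, 10 of the 45 passed, against 25.3% of all. The groups did not overlap for 11 member probes (24.4%), against 31.2% of all probes. Of the 45, 10 (22.2%) were lower in this way and 1 (2.22%) higher, against 15.4% and 15.8%. Several of these 10 lower probes read the same gene, Ttc3, and so did several of those that passed the unadjusted p. By representative probe 1 of 29 genes was called (3.45%), against 4.78% of 9998 genes. The groups did not overlap for 7 of the 29 (24.1%), against 32.5% of all genes. Those 7 were Tiam1, Paxbp1, Donson, Rcan1, Setd4 and Ttc3, all lower in Olig2_null (20.7% of the members, against 16.4% of all genes), and Cbr3, higher. A difference beyond 1 in size was found for 6 of the 29 (20.7%), against 22% of all genes. Counted in both directions, none of these shares was above that of all probes or genes, while the shares lower in Olig2_null were slightly above it. By their means, 19 members were lower in Olig2_null and 10 higher, or 65.5% lower against 49.8% of all genes, and the members' median difference was -0.23 where that of all genes was 0.00.

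**Figure D1:**
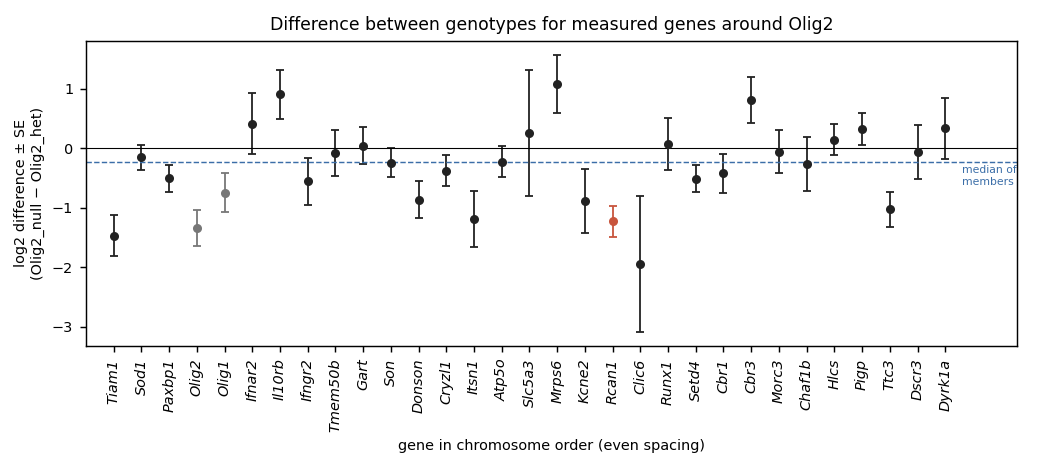
Difference in log2 signal (Olig2_null minus Olig2_het) on the vertical axis for the 29 measured members in their order along chromosome 16 on the horizontal axis, with Olig2 and Olig1 in their place; points are the fitted differences, bars are SE (n = 3 tumours a group) and the dashed line is the members' median. Rcan1, in red, is the called member at -1.23, Olig2 and Olig1 are grey, and the median lies at -0.23.

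Rcan1 encodes an inhibitor of calcineurin, the calcium-dependent phosphatase that activates NFAT factors. It has several start sites, and transcription from the one nearer the gene's end is known to be driven by NFAT. Both RefSeq promoters (GRCm38.p6, the 250 bases before each start, minus strand) are shown because Rcan1 was the called member. Capitals mark matches to the E-box CANNTG, a motif that reads the same on both strands.

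Rcan1 chr16:92466170-92466419: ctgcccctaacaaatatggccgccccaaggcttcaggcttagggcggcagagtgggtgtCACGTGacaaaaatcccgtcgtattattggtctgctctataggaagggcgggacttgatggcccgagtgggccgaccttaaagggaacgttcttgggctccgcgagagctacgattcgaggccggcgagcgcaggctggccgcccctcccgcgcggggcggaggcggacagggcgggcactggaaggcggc
Rcan1 chr16:92400079-92400328: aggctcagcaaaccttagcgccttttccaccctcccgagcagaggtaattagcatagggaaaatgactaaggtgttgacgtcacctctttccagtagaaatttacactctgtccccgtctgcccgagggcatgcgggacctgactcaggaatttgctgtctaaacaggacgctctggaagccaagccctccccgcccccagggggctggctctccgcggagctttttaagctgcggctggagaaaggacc

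The farther-upstream promoter holds 1 E-box and the other 0. The second holds GGAAA, the core that NFAT factors bind, 3 times counting both strands, and the first 0 times. Such matches are common: of 32851 RefSeq promoter windows of this length 66.2% hold CANNTG and 55.6% hold GGAAA on either strand. Of the 51 windows of the 36 members with a RefSeq promoter, 24 (47.1%) hold CANNTG and 62.7% GGAAA. A match is a description of the letters only, and the array shows no binding.

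On the brighter of its 2 tested probes, ILMN_2701991, Rcan1 read 11.04, 10.94 and 11.29 in the Olig2_het and 9.86, 9.56 and 10.16 in the Olig2_null group. Every Olig2_null tumour lay below every Olig2_het tumour, and the gap between the groups was wider than the range within either. The means were 11.09 ± 0.18 (SD, n = 3) and 9.86 ± 0.30 (SD, n = 3), a difference of -1.23 ± 0.25 or 2.34-fold (adjusted p = 0.0469). The dimmer probe, ILMN_1259180, read 6.73, 6.23 and 5.45 against 5.41, 6.42 and 5.74. On it the groups overlapped, 1 Olig2_null tumour was not detected, and the difference was -0.28 ± 0.41 (adjusted p = 0.722). The platform assigns both probes to the same RefSeq transcript, so the disagreement cannot be read as one start site against the other. The call lay close to the threshold: it was lost when any array other than Olig2_null replicate 3 was left out, with adjusted p from 0.0898 to 0.179, with differences between -1.30 and -1.08. Without Olig2_null replicate 3 it was -1.38 (adjusted p = 0.0252).

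Tiam1, the farthest member before Olig2, encodes an exchange factor that activates the small GTPase Rac and so acts on cell shape and migration. It read 10.92, 11.25 and 11.81 in Olig2_het and 9.36, 10.14 and 10.08 in Olig2_null tumours. The groups did not overlap. By brightest probe, the difference was the largest among the members apart from that of Clic6, at -1.47 ± 0.34 or 2.76-fold (adjusted p = 0.0595), and missed the threshold. Without Olig2_null replicate 3, when 13.2% of all tested probes and 9 of the 45 member probes were called, it was -1.58 with an adjusted p of 0.0466. A pair of its RefSeq promoters (GRCm38.p6, minus strand, E-boxes in capitals) is shown because no other member gave so large a difference on a brightest probe detected on all arrays.

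Tiam1 chr16:89974700-89974949: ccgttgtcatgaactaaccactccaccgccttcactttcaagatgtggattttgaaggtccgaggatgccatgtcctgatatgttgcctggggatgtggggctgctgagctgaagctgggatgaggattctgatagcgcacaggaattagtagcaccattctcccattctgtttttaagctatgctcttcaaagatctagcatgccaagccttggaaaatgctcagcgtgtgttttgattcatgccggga
Tiam1 chr16:89818353-89818602: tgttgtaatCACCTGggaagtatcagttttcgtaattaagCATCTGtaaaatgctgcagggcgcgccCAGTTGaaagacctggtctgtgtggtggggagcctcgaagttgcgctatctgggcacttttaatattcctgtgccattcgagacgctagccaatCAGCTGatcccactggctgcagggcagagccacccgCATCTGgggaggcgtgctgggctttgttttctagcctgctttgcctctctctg

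The upstream window holds 0 E-boxes and the downstream one 5. The single Tiam1 probe does not tell which start its transcripts came from.

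Ttc3, which encodes a ubiquitin ligase with tetratricopeptide repeats known to bind the kinase Akt, had 9 probes, of which 6 were tested. Its brightest probe, ILMN_2841721, read 14.15, 14.23 and 14.48 in the Olig2_het and 13.22, 12.83 and 13.74 in the Olig2_null group. No Olig2_null tumour reached the Olig2_het range. The difference was -1.02 ± 0.29 or 2.03-fold (adjusted p = 0.0905). A further 4 probes also separated the groups, by -1.13 ± 0.28 (ILMN_2841720, adjusted p = 0.0680), -1.08 ± 0.31 (ILMN_2498479, 0.0911), -1.14 ± 0.33 (ILMN_2498478, 0.0900) and -1.56 ± 0.49 (ILMN_1260446, 0.108). The dim probe ILMN_1247036 overlapped, at -0.26 ± 0.39 (adjusted p = 0.730). These probes read 1 gene in the same 6 tumours and are not independent of each other. Without Olig2_null replicate 3 the brightest probe gave -1.26 with an adjusted p of 0.0345.

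**Figure D2:**
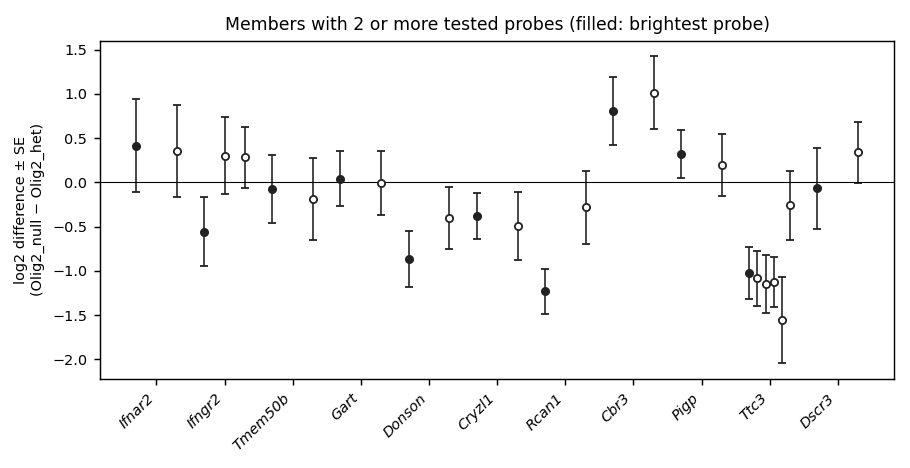
Difference in log2 signal (Olig2_null minus Olig2_het, vertical axis) for each tested probe of the members with more than 1 (horizontal axis, by distance from Olig2); bars are SE, n = 3 tumours a group, and filled points are the brightest probe. Of the Ttc3 probes 5 lie between -1.56 and -1.02 and 1 at -0.26, and the Rcan1 probes lie at -1.23 and -0.28.

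Ttc3 starts next to Pigp, an enzyme subunit of glycosylphosphatidylinositol anchor synthesis, which is transcribed from the other strand and overlaps Ttc3 in the annotation. The 28 bases between the Ttc3 start and the nearest Pigp start (GRCm38.p6, plus strand) are shown because the differences of these head-to-head genes have opposite signs.

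Ttc3-Pigp chr16:94370711-94370738: gggggcgacgcggcgactgcgcatgcgc

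Pigp read 11.48, 11.43 and 11.51 in Olig2_het and 12.24, 11.45 and 11.70 in Olig2_null tumours, and the ranges overlapped. Its difference was 0.33 ± 0.27 (adjusted p = 0.505), and its other probe gave 0.20 ± 0.35 (adjusted p = 0.775). Taken within each array, the Ttc3 signal stood 2.67, 2.80 and 2.98 above that of Pigp in Olig2_het tumours and 0.98, 1.39 and 2.03 above it in Olig2_null tumours. The groups did not overlap in this gap and its mean was lower in Olig2_null by 1.35 (-1.35). The pair was picked with its values known, so the gap was not tested. Probes of different genes differ in brightness for the same RNA, so the gap itself is no ratio of transcripts.

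Another pair of neighbours had differences of opposite sign. Cbr3 and Cbr1 encode carbonyl reductases, which reduce ketones and quinones. Cbr3 read 11.92, 11.39 and 11.48 in the Olig2_het and 13.20, 12.06 and 11.94 in the Olig2_null group, the one member whose representative probe was higher in every Olig2_null tumour than in any Olig2_het tumour. The difference was 0.81 ± 0.39 or 1.75-fold (adjusted p = 0.246), and Olig2_null replicate 1 set much of it: without that tumour it was 0.40. Its second probe gave 1.02 ± 0.41 (adjusted p = 0.182) with overlapping groups. Cbr1 read 10.07, 10.11 and 10.46 against 10.40, 9.36 and 9.63, which overlapped (-0.42 ± 0.33, adjusted p = 0.476). Within arrays Cbr3 stood 1.85, 1.27 and 1.01 above Cbr1 in Olig2_het and 2.80, 2.70 and 2.31 above it in Olig2_null, with no overlap and a mean gap 1.23 larger. This pair too was picked with its values known. Of the 4 pairs compared in this way, Mrps6 with Slc5a3 and Son with Gart had gaps that overlapped between the groups. Their mean gaps differed by 0.83 and -0.29 (Olig2_null minus Olig2_het).

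Mrps6 and Slc5a3 share a promoter region and overlap in the annotation. Mrps6 encodes a protein of the mitochondrial ribosome, and Slc5a3 the sodium-coupled transporter of myo-inositol, an osmolyte of brain cells. The Slc5a3 promoter (GRCm38.p6, plus strand, E-boxes in capitals) is shown because the Mrps6 start lies only 14 bases further along.

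Slc5a3 chr16:92058072-92058321: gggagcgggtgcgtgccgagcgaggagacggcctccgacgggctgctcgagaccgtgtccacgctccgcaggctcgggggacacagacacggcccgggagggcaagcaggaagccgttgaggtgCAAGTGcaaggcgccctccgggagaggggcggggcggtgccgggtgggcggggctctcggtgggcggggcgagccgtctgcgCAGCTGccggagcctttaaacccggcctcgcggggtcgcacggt

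The window holds 2 E-boxes. Mrps6 read 13.07, 12.45 and 11.69 in Olig2_het and 14.19, 13.59 and 12.70 in Olig2_null tumours, and the ranges overlapped. Its difference of 1.09 ± 0.49 or 2.13-fold was the highest positive one of the members and was not called (adjusted p = 0.219). Slc5a3 varied widely within both groups: 8.64, 8.52 and 5.45 against 9.60, 7.13 and 6.65, a difference of 0.26 ± 1.06 (adjusted p = 0.909). With 1 array left out it ranged from -0.78 without Olig2_het replicate 3 to 0.83 without Olig2_null replicate 3. Without Olig2_null replicate 1 it was -0.64.

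The receptor chains next to Olig2 showed no common direction. Il10rb, the shared second chain of the interleukin-10 and lambda interferon receptors, read 6.81, 6.65 and 7.40 in the Olig2_het and 8.69, 7.53 and 7.36 in the Olig2_null group, with a difference of 0.91 ± 0.41 (1.87-fold, adjusted p = 0.225). Ifnar2, a chain of the type I interferon receptor and the nearest measured member after Olig2, read 7.01, 7.52 and 7.17 against 8.85, 7.34 and 6.77 (0.42 ± 0.52, adjusted p = 0.670). Both were highest in Olig2_null replicate 1. Without that tumour Il10rb differed by 0.49 and Ifnar2 by -0.18, and without Olig2_null replicate 3 by 1.16 and 0.86. The second Ifnar2 probe gave 0.35 ± 0.52 (adjusted p = 0.724). Ifngr2, the signalling chain of the interferon gamma receptor, had 3 tested probes that did not share a sign: 0.29 ± 0.34 (adjusted p = 0.658), 0.30 ± 0.43 (0.712) and, on the brightest, -0.56 ± 0.39 (0.431). Ifnar1, the other type I chain, was not detected on any array, which for 1 probe leaves its level unknown.

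**Figure D3:**
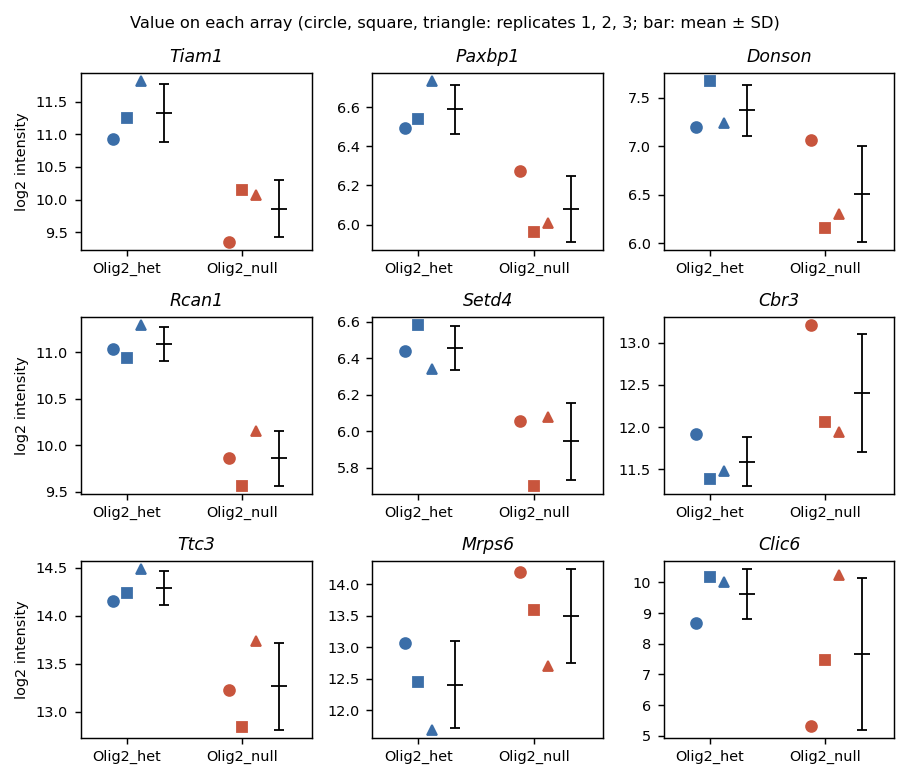
Log2 signal on the vertical axis in each of the 6 tumours for the 7 members whose groups do not overlap and for Mrps6 and Clic6, by group on the horizontal axis. Each symbol is 1 tumour (circle, square and triangle for replicates 1, 2 and 3) and the bar is mean ± SD, n = 3; each panel has its own scale, and Olig2_null replicate 3 is the highest of all for Clic6, at 10.24.

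Among members that act in the nucleus, 3 separated the groups and none was called. Donson, which helps load the replicative helicase, read 7.20, 7.67 and 7.24 in Olig2_het and 7.07, 6.16 and 6.30 in Olig2_null tumours (-0.86 ± 0.32, 1.82-fold, adjusted p = 0.149). Its second probe gave -0.40 ± 0.35 (adjusted p = 0.530) and was detected in 2 Olig2_het and 1 Olig2_null tumours. Paxbp1, which links Pax3 and Pax7 to a histone methyltransferase complex and is the member next before Olig2, read 6.49, 6.54 and 6.73 against 6.27, 5.96 and 6.01 (-0.51 ± 0.22, adjusted p = 0.216). Setd4, a SET-domain protein, read 6.44, 6.58 and 6.34 against 6.06, 5.70 and 6.08 (-0.51 ± 0.23, adjusted p = 0.225). All 3 are dim, and with no background correction their differences shrank to -0.40, -0.19 and -0.18.

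The other nuclear members differed less and their groups overlapped. Son, a splicing cofactor of nuclear speckles that overlaps Donson in the annotation, differed by -0.24 ± 0.25 (adjusted p = 0.596). Chaf1b, a subunit of the histone chaperone CAF-1, differed by -0.26 ± 0.46 (0.770), and Morc3, a nuclear ATPase, by -0.05 ± 0.36 (0.946). Runx1, a transcription factor of blood formation that is also made by activated myeloid cells, stood near the limit of detection at 6.66, 5.84 and 5.23 against 6.46, 6.07 and 5.41 (0.07 ± 0.44, adjusted p = 0.939). Hlcs, which attaches biotin to carboxylases and histones, differed by 0.14 ± 0.26 (0.780).

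The kinase gene Dyrk1a, dosage-sensitive in brain growth, read 6.12, 5.76 and 6.44 in the Olig2_het and 7.63, 5.78 and 5.91 in the Olig2_null group. Only Olig2_null replicate 1 was high, and the difference was 0.33 ± 0.51 (adjusted p = 0.735), or -0.26 without that tumour. Itsn1, a scaffold of clathrin-mediated endocytosis, read 5.57, 6.95 and 7.26 against 4.98, 5.79 and 5.44 (-1.19 ± 0.47, adjusted p = 0.175). It was detected in 2 of the 3 Olig2_null tumours, the groups overlapped, and with no background correction the difference was -0.43. Dscr3, now named Vps26c, a subunit of the retriever complex of endosomal recycling, gave -0.07 ± 0.46 (0.948) and 0.34 ± 0.35 (0.592) on its 2 tested probes. Tmem50b, a membrane protein of the endoplasmic reticulum and Golgi, gave -0.08 ± 0.38 (0.927) and -0.19 ± 0.47 (0.845).

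The remaining members of metabolism differed little. Sod1, the cytosolic superoxide dismutase, was among the most even: 13.20, 13.29 and 13.27 in Olig2_het and 13.25, 13.04 and 13.01 in Olig2_null tumours (-0.15 ± 0.21, adjusted p = 0.712). Gart, which catalyses 3 steps of purine synthesis, gave 0.04 ± 0.31 (0.950) and -0.01 ± 0.36 (0.994) on its 2 probes, the first between -0.20 and 0.27 when 1 Olig2_null tumour was left out. Atp5o, a subunit of the mitochondrial ATP synthase, gave -0.23 ± 0.26 (0.637), between -0.42 and -0.07 in the same way. Cryzl1, a quinone reductase-like protein, gave -0.38 ± 0.26 (0.417) on its brighter probe and -0.49 ± 0.38 (0.474) on the other. These genes do not show that the members were unchanged: the median SE of a member's difference was 0.36, so differences of that size could not be detected.

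Clic6 and Kcne2 were both lowest in Olig2_null replicates 1 and 2 and high in Olig2_null replicate 3. Clic6, an intracellular chloride channel protein, read 8.68, 10.16 and 10.00 in the Olig2_het and 5.32, 7.46 and 10.24 in the Olig2_null group. It was not detected in Olig2_null replicate 1, and Olig2_null replicate 3 was the highest of all 6. Kcne2, a potassium channel subunit, read 5.89, 6.88 and 6.03 against 4.75, 4.83 and 6.56 and was detected in Olig2_null replicate 3 alone of its group. The differences were -1.95 ± 1.14 (adjusted p = 0.343) and -0.89 ± 0.54 (adjusted p = 0.360). Without Olig2_null replicate 3 they were -3.23 (adjusted p = 0.0345) and -1.48 (adjusted p = 0.0471), and without Olig2_null replicate 1 they were -0.77 (0.646) and -0.57 (0.608). With no background correction they were -1.15 and -0.28. Both genes are known for strong expression in the choroid plexus. The choroid plexus marker Ttr followed the same pattern, at 13.56, 14.46 and 14.03 against 10.68, 11.52 and 14.71, and so did Otx2, at 7.15, 7.99 and 6.79 against 5.10, 4.62 and 8.13. Not all markers of the list went this way. Of the 8 measured markers of choroid plexus or ependyma 6 had lower means in Olig2_null, 2 had higher means and 0 were called. The groups did not overlap for 1 that was lower and 1 that was higher in Olig2_null. Their mean level relative to Olig2_het was -0.60, -1.15 and 0.60 in Olig2_null replicates 1, 2 and 3. The part of such tissue in the Clic6 and Kcne2 values was not tested.

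The other genes of chromosome 16 also had a lower median. The 265 other measured genes of chromosome 16 had a median difference of -0.30, with 191 (72.1%) lower in Olig2_null, against -0.23 for the members. Chromosome 16 had the lowest median of the 20 chromosomes, -0.29 over 296 genes, followed by chromosome 18 at -0.15 and chromosome 5 at -0.10, and the highest was chromosome 3 at 0.17. The 249 genes before the first member had a median of -0.30, but not evenly: in 3 equal stretches of 83 genes it was -0.30, -0.47 and, next to the members, -0.08, with 79.5%, 78.3% and 56.6% of genes lower. The 12 genes after the last member had a median of -0.64. Of the other 265 genes 14 were called (5.28%, against 4.78% of all genes), 10 lower and 4 higher.

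This shift was largest in 1 tumour. Relative to the Olig2_het mean, the median gene of chromosome 16 lay at -0.08, -0.71 and -0.16 on the log2 scale in Olig2_null replicates 1, 2 and 3, and the median of all genes lay between -0.03 and 0.00 in these tumours. In Olig2_null replicate 2, 214 of the 265 other genes of the chromosome (80.8%) and 22 of the 29 members (75.9%) were below the Olig2_het mean, against 50.2% of all genes. In that tumour 17 members (58.6%) were below all 3 Olig2_het values, against 35.7% of all genes. The members' own median was 0.19, -0.59 and -0.38 in the 3 Olig2_null tumours, so replicate 3 was also low over the members, with 21 of 29 below the Olig2_het mean, and replicate 1 was not, with 12. Of the 120 medians of a chromosome on an array, 117 lay within 0.3 of 0. The remaining 3 were all of Olig2_null replicate 2: chromosome 16 at -0.71, chromosome 18 at -0.55 and chromosome 15 at 0.35. Without that tumour the median difference was -0.07 for the members, -0.12 for the other genes of chromosome 16 and 0.03 for chromosome 18.

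**Figure D4:**
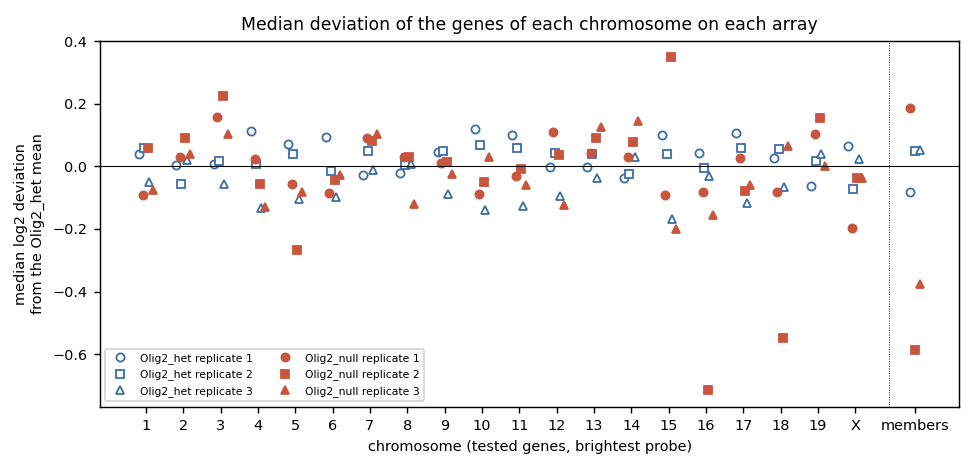
Median over the genes of each chromosome (horizontal axis) of the log2 signal relative to the Olig2_het mean (vertical axis), 1 symbol for each of the 6 tumours, with the members in the last column; an Olig2_het tumour is set against the other Olig2_het tumours. Chromosomes 16 and 18 of Olig2_null replicate 2 lie at -0.71 and -0.55, and chromosome 15 of the same tumour at 0.35.

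What made the genes of chromosome 16 low in that tumour was not tested. Without that tumour Rcan1 differed by -1.08, Tiam1 by -1.61 and Ttc3 by -0.81; since these genes were named for groups that do not overlap, leaving out a tumour could not turn their sign. In an alternative chosen after seeing the data, a median was subtracted on each array from all genes of chromosome 16. It was the median deviation from the Olig2_het mean over the 265 genes other than the members, Olig2 and Olig1. The members' median then became 0.093, Rcan1 gave -0.91 (adjusted p = 0.0754), Tiam1 -1.15 (0.149) and Ttc3 -0.70 (0.141). No member was called, against 4.34% of all probes. Cbr3 then gave 1.13 (0.109) and Mrps6 1.41 (0.142).

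The members were also described by side and by distance from Olig2. The 3 measured members before Olig2 were all lower (median -0.51), and of the 26 after it 16 were lower (median -0.15). The 14 nearer members had a median of -0.19, with 2 that separated the groups (14.3%), and the 15 farther ones -0.26, with 5 (33.3%), against 32.5% of all genes. The difference between nearer and farther members was not tested. The 4 other measured genes between the outermost members had a median of -0.03, and 0 of them were called. Neighbouring genes with overlapping spans had differences of opposite sign for Ttc3 and Pigp and of the same sign for Son and Donson and for Slc5a3 and Mrps6.

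Genes that work with the members, listed by function from textbook knowledge, gave 3 calls. Of the 11 measured partners of the interferon and interleukin-10 receptors 1 rose: Ifngr1, the ligand-binding chain that pairs with Ifngr2, read 8.20, 8.47 and 7.92 in Olig2_het and 9.96, 9.40 and 9.92 in Olig2_null tumours (1.56 ± 0.27, 2.96-fold, adjusted p = 0.0322). All 11 had a higher mean in Olig2_null (median 0.70), and their mean level relative to Olig2_het was 1.44, 0.23 and 0.23 in Olig2_null replicates 1, 2 and 3. Like Il10rb and Ifnar2, the list was therefore highest in replicate 1. Of 17 measured interferon target genes 14 had a higher mean in Olig2_null (median 0.87) and 1 rose, the antiviral membrane protein Ifitm3, from 12.53, 12.28 and 12.02 to 14.36, 14.05 and 13.48 (1.69 ± 0.30, 3.22-fold, adjusted p = 0.0336). Their mean level relative to Olig2_het was 2.32, 0.03 and 0.23 in the 3 Olig2_null tumours. The share called in either direction among all genes was 2.83% higher and 1.95% lower.

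Of the 21 measured partners of Itsn1 in endocytosis 15 had a lower mean in Olig2_null (median -0.38) and 1 fell: Sh3gl3, an endophilin of neurons, from 9.71, 9.39 and 9.10 to 5.91, 6.69 and 7.76 (-2.62 ± 0.47, 6.13-fold, adjusted p = 0.0340). For Rcan1, none of the 10 measured genes of calcineurin and NFAT was called; 7 had a lower mean (median -0.57), and the smallest p-values were those of the NFAT factors Nfatc3 (1.09, adjusted p = 0.0833) and Nfatc4 (1.76, 0.0927), both higher. The 9 other superoxide- and peroxide-removing enzymes all had higher means (median 0.33) with 0 called, among them Sod3, which was not detected in Olig2_het, so that its fitted 2.66 (adjusted p = 0.117) is no measured fold, and the Sod1 copper chaperone Ccs at 0.64 (0.168). None of the 9 genes of purine synthesis (median 0.38; Paics 0.42, adjusted p = 0.298; Ppat 0.43, 0.393), the 14 of chromatin assembly and replication (median 0.13; Gins4 0.41, 0.337; Pcna 0.39, 0.387) or the 3 partners of Runx1 (median 0.50; Runx1t1 -2.53, 0.0842; Cbfa2t3 0.85, 0.377) was called. The same held for the 4 DYRK and HIPK kinases (median -0.64; Hipk2 -1.06, 0.156; Dyrk1b 0.59, 0.160) and for Kcnj3, the 1 measured channel subunit related to Kcnj6 (-0.81, 0.230).

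Markers of several cell types also differed between the groups, which in bulk RNA does not show whether the cell makeup differed. Of 13 measured neuron markers 12 had lower means in Olig2_null (median -2.51, 0 called), and their mean relative to Olig2_het was -4.54, -2.20 and -0.73 in Olig2_null replicates 1, 2 and 3, against -0.75, 0.00 and 0.75 in the Olig2_het tumours. The oligodendrocyte markers were lower too (9 measured, 3 called lower, median -3.29), at -4.97, -4.06 and -1.40. All 12 measured markers of microglia or macrophages had higher means (2 called, median 0.72), at 2.07, 0.58 and 0.67. Of 10 measured endothelial markers 9 had higher means and 1 lower (4 called higher, median 1.35). The 7 measured pericyte or fibroblast markers were split, with 4 higher and 3 lower means (1 called higher, median 1.13). Of 7 measured precursor markers of the oligodendrocyte lineage 6 had lower means and 1 higher (2 called lower, median -0.96). The 11 astrocyte markers had a median of 0.07 with 0 called. Of all genes 2.83% were called higher and 1.95% lower. No T or B cell marker passed detection, with Cd8a, Cd79a and Ms4a1 undetected on every array. Tiam1, Ttc3, Rcan1 and Itsn1 are known to be expressed by neurons among other brain cells, and Il10rb, Ifnar2 and Ifngr2 by myeloid cells; the part of cell makeup in their values was not tested.

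**Figure D5:**
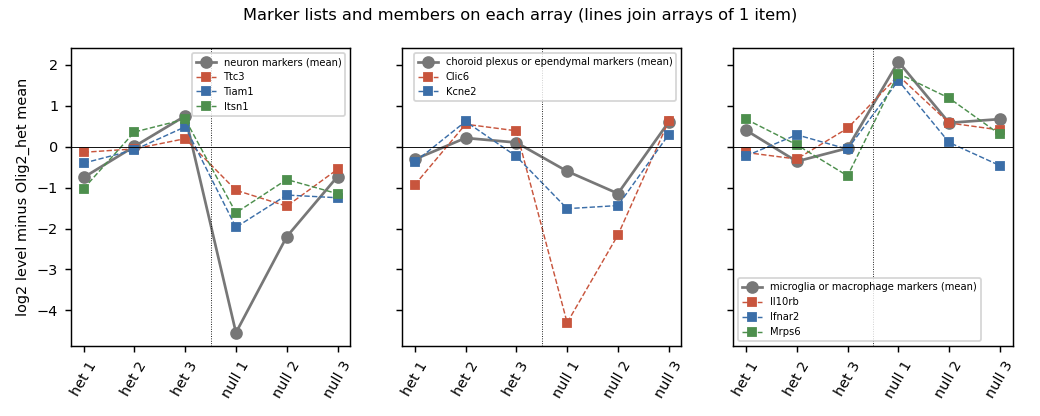
Log2 level minus the Olig2_het mean (vertical axis) in each of the 6 tumours (horizontal axis) for the mean of a marker list, in grey, and for members set beside it. Each line joins the values of 1 item, and the members were picked with their values known. Ttc3, Tiam1 and Itsn1 stand beside neuron markers, and Clic6 and Kcne2 beside choroid plexus or ependymal markers. Il10rb, Ifnar2 and Mrps6 stand beside microglia or macrophage markers. Mrps6, a gene of the mitochondrial ribosome, was not named as one of myeloid cells. Ifngr2, at -0.56 on its brightest probe, is not drawn. Neither is Rcan1, at -1.23 on its brightest probe and lowest in Olig2_null replicate 2 (9.56). Neuron markers and microglia or macrophage markers are farthest from 0 in Olig2_null replicate 1, at -4.54 and 2.07, and choroid plexus or ependymal markers lie at -0.60, -1.15 and 0.60 in the Olig2_null tumours.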

How the data were processed

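The authors deposited a table of linear probe intensity that was neither normalized nor background-subtracted, and a detection p-value beside each, per the file headers. The authors deposited a second table of normalized intensity, which equalled the quantile-normalized signals within 0.0471%, with numbers 1 and 3 exchanged in both groups. The numbering of the first table is kept, so the ages of 45 and 47 days are uncertain for numbers 1 and 3. The sources used here give no scanner software or batches.

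The signals were processed with neqc in limma 3.58.1 under R 4.3.3: normexp background correction (offset 16, negative controls inferred from detection p-values), quantile normalization and log2. The 14606 probes detected at p under 0.05 on 3 or more arrays were fitted with lmFit and eBayes, two-sided, with genotype as the only term, and adjusted by Benjamini-Hochberg over all of them. The procedure was tested on simulated data with independent noise for each probe. Deviations shared by many genes of a tumour were not simulated, so it does not show how reliable the calls are here. The number of arrays limits the precision.

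Probe names come from the platform's annotation (1719 unnamed here). Of the 23978 named, 23962 matched GRCm38.p6, which gave order and promoter sequences (RefSeq). The sources used here name no build.

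The members and lists were chosen with earlier results of these data known. Called members and members whose groups do not overlap are given with the value of each array, others by difference, and in partner lists the called genes or the 2 with the smallest p. Alternatives were the background correction, normalization, detection filter, array weights, variance prior, replicate block, and leaving out each array.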

Additional observations from a re-analysis of the deposited data

How the results depend on the processing

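Over all tested probes, 645 were called. Array weights gave 1860, the authors' normalized values and no background correction 411 each, no detection filter 230, the replicate block 1382, an unadjusted p under 0.05 3697, and leaving out 1 array between 9 and 1922, the highest without Olig2_null replicate 3. Among the member probes, 1 was called. Array weights gave 7 (15.6%, from 4 genes), against 12.7% of all probes. Trended and robust variance gave 3 (6.67%, against 4.66%), and the replicate block 3 (6.67%, against 9.46%). An unadjusted p gave 10, against 25.3% of all. Cyclic loess and no filter gave 0 each, against 4.05% and 0.895%. The removal of the chromosome 16 median (chosen after seeing the data) also gave 0, against 4.34%. Leaving out 1 array gave 0 to 9. The 9, from 5 genes (20% of member probes, against 13.2% of all), came without Olig2_null replicate 3. Leaving out any of the other 5 arrays gave 0, against 0.0616% to 2.09% of all. The members' median of -0.23 became 0.093 with the chromosome 16 median removed and kept its sign in all other settings, from -0.44 without Olig2_null replicate 1 to -0.07 without Olig2_null replicate 2. Of the partner genes 3 were called, 9 with array weights, 8 with the replicate block, 24 at an unadjusted p, 0 with no filter, and 0 to 13 when 1 array was left out. Rcan1 was called in 8 of 16 settings. These 8 include both the authors' normalized values and no background correction, which are nearly the same values (adjusted p = 0.0341 in each). They therefore do not count as separate alternatives. Rcan1 missed narrowly under cyclic loess (adjusted p = 0.0502) and with no filter (0.0577).

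Same-numbered tumours deviated together at r = 0.194, 0.0168 and 0.302. Tumours of numbers 1 and 3 correlated best with their own number, and those of number 2 did not. The crossed pairs of numbers 1 and 3 stood at -0.297 and -0.203. The numbers were not taken to pair the samples, though same-numbered tumours also share a labelled age. The block's higher counts are not read further. The cause of the changes was not tested, except that 25697 probes are adjusted for when no filter is used and fewer arrays are used when 1 is left out.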
